A study of Mus musculus with 6 samples.

Results

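The genes described here are 37 genes of the melanocyte lineage and of the melanosome, taken by name from the 53801 genes of a table of RNA-seq counts. They comprise 7 lineage factors and receptors, 3 melanin enzymes, 8 melanosome structure and channel genes, 6 melanosome transport genes and 13 genes of organelle biogenesis. RNA was sequenced from PDGFRα+ PDPN+ stromal cells sorted from MO5 tumors. MO5 is the B16-OVA melanoma line, B16 cells that carry the ovalbumin gene. The Ctrl group holds 3 libraries from DTR- mice, the non-transgenic littermates, and the DTR group holds 3 libraries from ADAM12-DTR mice, which carry a diphtheria toxin receptor under control of the Adam12 locus on a bacterial artificial chromosome. Both groups received diphtheria toxin, so the toxin is shared and the transgene differs. The implanted tumor cells carry no toxin receptor transgene in either group, and the toxin acts on host cells that express the receptor. No label says how many animals gave cells to a library, so p-values measure only the spread between libraries, which may in part be technical.

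Pigment cells are built by a small set of transcription factors. MITF, with SOX10, PAX3 and TFAP2A, switches on the genes for tyrosinase and its relatives, which make melanin inside the melanosome, a lysosome-related organelle. Adaptor and BLOC complexes deliver the enzymes and channels to that organelle, and RAB27A, melanophilin and myosin Va carry the ripe melanosome along actin. Fibroblasts do not make melanin, whereas B16 melanoma cells are pigmented. The melanin enzymes, PMEL and MLANA are made by pigment cells and by few others, while most biogenesis genes serve lysosomes and related organelles in many cell types. In bulk samples such as these, fewer cells of a type and less RNA per cell cannot be told apart.

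Promoter letters that several of these genes share are shown first, because all 3 melanin enzyme genes hold the same word before their start. MITF and its relatives are known to recognise CATGTG and CACGTG, and the longer word TCATGTG contains the first of these. RefSeq promoters (GRCm38.p6, 250 bases before to 50 after a start) were at hand for 29 of the 37 genes. TCATGTG, read on either strand, was in the promoters of 7 of these 29 genes, namely Tyr, Tyrp1, Dct, Trpm1, Slc24a5, Mc1r and Hps1, against 4.31% of all genes with a promoter in the table and 3.77% of all promoters. CATGTG was in 9 of the 29 genes, against 15.9% of all genes and 14.2% of all promoters. CACGTG, which reads the same on both strands, was in 8 of the 29 genes, against 8.09% of all genes and 7.15% of all promoters, and 5 of the 8 were biogenesis genes. Stretches before the RefSeq start are given 5′ to 3′ on the strand of the gene, with TCATGTG or its reverse CACATGA in capitals. For Mlph, the transport gene with the lowest log2 fold change, CACGTG is in capitals.
Tyr: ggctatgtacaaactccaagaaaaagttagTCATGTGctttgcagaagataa
Tyrp1: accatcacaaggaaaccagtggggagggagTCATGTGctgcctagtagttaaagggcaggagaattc
Dct: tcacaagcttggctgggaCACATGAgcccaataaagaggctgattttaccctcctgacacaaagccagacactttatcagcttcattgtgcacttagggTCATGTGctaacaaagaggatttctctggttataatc
Trpm1: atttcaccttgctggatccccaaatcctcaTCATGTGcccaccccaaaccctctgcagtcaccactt
Slc24a5: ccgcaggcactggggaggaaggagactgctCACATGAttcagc
Mlph: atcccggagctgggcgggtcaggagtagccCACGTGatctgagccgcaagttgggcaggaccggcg
The stretches lie at chr7:87493513-87493564 on the minus strand for Tyr, chr4:80834136-80834202 on the plus strand for Tyrp1 and chr14:118052361-118052496 on the minus strand for Dct. Those of Trpm1, Slc24a5 and Mlph lie on the plus strand at chr7:64153663-64153729, chr2:125068084-125068126 and chr1:90915022-90915087. The starts used here are those of RefSeq, whereas gene positions given below come from GENCODE. By GENCODE the Tyrp1 stretch lies inside the gene, and those of Slc24a5 and Mlph end just past the gene start. The word began 22 bases before the start in Tyr, 47 in Tyrp1 and 142 in Trpm1, and Dct held it at 232 and at 151 bases. A match of letters is a description of the window and not a site of binding, and the windows of genes without a match are silent on the factor.

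Between 22339635 and 34271929 counts per library fell on genes, and 3 counts, the smallest number treated here as detected, correspond to 0.0875 to 0.134 CPM (counts scaled to the size of the library) by library size alone, a floor that covers counting error only. Unless library size alone is named, CPM are otherwise scaled with edgeR's TMM factors, which correct for a few very abundant genes, and a level per kb is the mean CPM divided by the length of the annotated exons. Of the 37 genes, 35 had enough counts to be tested by edgeR's quasi-likelihood test, which covered 15133 genes. Mc1r, the melanocortin receptor, and Hps6, a BLOC-2 subunit, were listed at 0 in all 6 libraries. Whether their 0 is a level or comes from the counting was not tested. Both have 1 exon in the annotation used here, as does Bloc1s4, which had 197 to 298 counts per library. Adam12, the gene whose locus drives the receptor, had 216, 181 and 175 CPM in Ctrl and 165, 151 and 112 in DTR, so its transcripts were lower but present in DTR (edgeR unadjusted p 0.0265, adjusted p 0.602). The sorted cells carried fibroblast transcripts, with all 12 markers of a fibroblast list tested, Pdgfra at 42.7 to 132 CPM and Pdpn at 46.0 to 99.2 CPM. Markers of other cells were partly present. Summed over 12 macrophage markers, of which 11 were tested, the level was 126 to 206 CPM with Itgam listed at 0, although the sort, by the study's methods, gated out CD45+ and CD31+ cells. Of the 8 endothelial markers 5 were tested, with log2 fold changes above 0 for 4 and at -1.53 for Cdh5. Vwf and Tek were higher in DTR at an unadjusted edgeR p under 0.05, where 3.81% of all tested genes were, and Emcn and Cldn5 were at most at 0.0644 CPM. Of the keratinocyte markers, Krt1, Krt15 and Dsg3 were at 0 in each library and Krt14 and Krt5 at most at 0.141 CPM.

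The pigment genes were among the most abundant transcripts of the sort. Ranked by level per kb among 21967 protein-coding genes, Pmel stood at place 5, Tyrp1 at 7, Dct at 8 and Mlana at 20, while the fibroblast collagens Col3a1 and Col1a1 stood at 24 and 32. Gpnmb, Slc24a5, Slc45a2, Rab38, Mitf and Tyr followed at places 43, 50, 59, 91, 114 and 117. Together the 37 genes took 2.31% to 2.79% of all counts in a library. Levels per kb of the 35 tested genes spanned from 1367 for Pmel to 0.263 for Ednrb, so lineage receptors and melanosome proteins lay at opposite ends of the same group. The order at the top is not firm, since with the longest transcript in place of the union of exons it became Dct, Pmel and Tyrp1, at 1941, 1472 and 1248 per kb in place of 1139, 1367 and 1200.

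**Figure D1:**
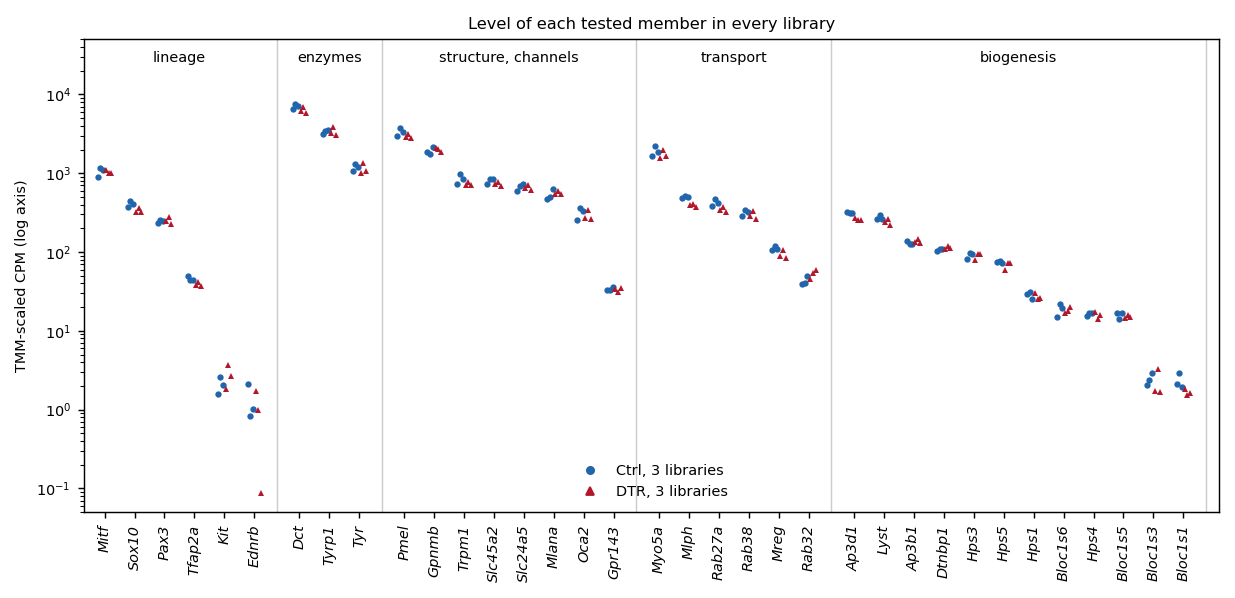
Level of each of the 35 tested genes in every library, in TMM-scaled CPM on a log axis, grouped by role and ordered by mean level, with circles for the 3 Ctrl and triangles for the 3 DTR libraries. Levels ran from 7580 CPM for Dct in Ctrl 2 to 0.0882 CPM for Ednrb in DTR 3, and for most genes the spread between the 6 libraries is small beside the distance between genes.

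To ask whether removal of ADAM12+ cells went with a different pigment-cell signal, DTR was compared with Ctrl gene by gene. With edgeR and Benjamini-Hochberg adjustment over every gene tested, 0 of the 35 genes had an adjusted p under 0.05, as did 0% of the 15133 genes. DESeq2's Wald test also called 0 of the 35, against 0.152% of the genes it adjusted, with a lowest adjusted p of 0.204, for Mlph. At an unadjusted p under 0.05 in edgeR, 6 genes were lower in DTR and 0 were higher. Of all tested genes, 4.11% were lower and 3.81% higher (7.92% in either direction). DESeq2 gave 5 lower, where 1.96% of its 26748 genes with a p were, a set that includes genes with too few counts for the edgeR test. All 3 DTR libraries were below all 3 Ctrl libraries for 7 genes and above them for 0, where 8.18% of all tested genes were lower in this way and 6.32% were higher (14.5% in either direction). Of the 35 genes, 27 had a log2 fold change below 0 and 8 above 0, beside 7626 below and 7507 above among all genes tested. The median over all genes tested was -0.0029, and that of the 35 was -0.11. The median was -0.03 without Ctrl 2 and -0.19 without DTR 2. All 12 fibroblast markers had a log2 fold change above 0, with a median of 0.40, 0 of them at an unadjusted p under 0.05 in edgeR and 1 in DESeq2, and the part of the fibroblast fraction in the pigment gene values was not tested.

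Abundance matters to how these counts are read. Of the 1799 tested genes with a mean of at least 100 CPM, a limit chosen after the values were seen, 17.5% lay wholly below Ctrl in DTR and 3.95% wholly above. Of the 22 pigment genes past that limit, 5 lay wholly below, which is 22.7%, and 0 wholly above. The share among the pigment genes is thus near that of other abundant genes. The count also moved with the scaling, since library size alone gave 5 such genes in place of 7, with Sox10, Rab27a and Mreg overlapping and Hps5 added, where 6.35% of all tested genes were then lower and 7.18% higher. At an unadjusted edgeR p under 0.05, 191 of the 1799 abundant genes were lower in DTR and 47 were higher. Log2 fold changes were below 0 for 1141 of the 1799, with a median of -0.05. They were below 0 for 16 of the 22 pigment genes past the limit, with a median of -0.13.

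**Figure D2:**
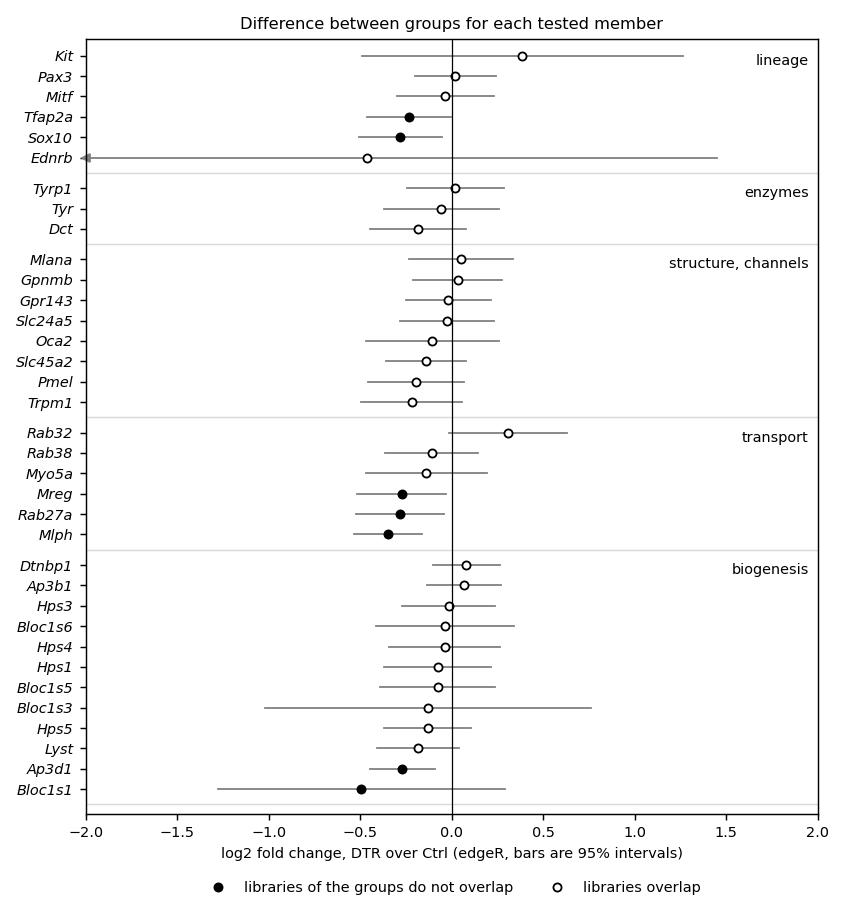
Log2 fold change of DTR over Ctrl for each tested gene from edgeR's quasi-likelihood fit, with its 95% interval, ordered within each role. Filled points mark the 7 genes whose libraries do not overlap between the groups, all of them below 0, and the interval of Ednrb runs past the left edge to -2.38.

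Among the lineage factors, Mitf, the master regulator of pigment cells (ENSMUSG00000035158, chr6:97807052-98021349 of GRCm38), had 906, 1180 and 1105 CPM in Ctrl 1 to 3 and 1087, 1009 and 1018 in DTR 1 to 3. The groups overlapped, with Ctrl 1 the lowest and Ctrl 2 the highest of the 6. Its log2 fold change, DTR over Ctrl, was -0.04 with a standard error (SE) of 0.114 and a 95% interval from -18.7% to 17.1%. Sox10, a neural crest factor upstream of Mitf (ENSMUSG00000033006, chr15:79154908-79165240), had 372, 442 and 409 CPM in Ctrl and 324, 362 and 319 in DTR. Each DTR library of Sox10 was below each Ctrl library, by a narrow margin between DTR 2 and Ctrl 1. The log2 fold change of Sox10 was -0.28 (SE 0.0979), which is -17.8% with an interval from -29.7% to -3.81%, and edgeR gave an unadjusted p of 0.0207 and an adjusted p of 0.602. Leaving out 1 library at a time kept it between -0.34 and -0.22.

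Pax3, the paired-box factor that acts with Sox10 on Mitf, had 236.5, 257 and 245 CPM in Ctrl and 249.7, 275 and 224 CPM in DTR, which overlapped, at 0.02 on the log2 scale (SE 0.0968). Tfap2a, the AP-2 factor of the neural crest, had 49.1, 44.0 and 44.5 CPM in Ctrl and 38.2, 41.5 and 37.2 in DTR. All 3 DTR values of Tfap2a lay below those of Ctrl, at a log2 fold change of -0.24 (SE 0.0994), an unadjusted edgeR p of 0.0456 and an adjusted p of 0.621. The surface receptors of the lineage were scarce. Kit, the receptor of stem cell factor, had between 39 and 113 reads per library, with 1.59, 2.60 and 2.04 CPM in Ctrl and 1.80, 3.64 and 2.69 in DTR. Ednrb, the endothelin receptor of melanoblasts, had 51, 20 and 29 reads in Ctrl and 59, 31 and 2 in DTR, so the last library lay under the limit of 3 counts. Groups overlapped for both receptors. The log2 fold change of Kit was 0.38 (SE 0.380, interval from -29.0% to 140%) and that of Ednrb -0.46 (SE 0.828, interval from -80.8% to 173%), so these reads leave wide limits on a difference. The value of Kit ran from 0.11 without DTR 2 to 0.62 without DTR 1, and that of Ednrb was 0.05 without DTR 3.

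The melanin enzymes did not separate the groups beyond the spread of the libraries. Tyr encodes tyrosinase, the rate-limiting enzyme of melanin synthesis (ENSMUSG00000004651, chr7:87424771-87493512), and had 1076, 1299 and 1202 CPM in Ctrl and 1018, 1364 and 1054 in DTR. The highest and the lowest of its 6 values were both DTR libraries, and its log2 fold change was -0.06 (SE 0.136, interval from -22.7% to 19.3%). Tyrp1, whose product acts late in eumelanin synthesis (ENSMUSG00000005994, chr4:80834123-80851719), had 3160, 3393 and 3562 CPM in Ctrl and 3268, 3875 and 3103 in DTR. DTR again held both extremes, at a log2 fold change of 0.02 (SE 0.115, interval from -15.8% to 21.8%). Dct, the dopachrome tautomerase (ENSMUSG00000022129, chr14:118012790-118052244), had 6619, 7580 and 7238 CPM in Ctrl and 6185, 6912 and 5751 in DTR. Its lowest libraries were DTR 3 and DTR 1, but DTR 2 exceeded Ctrl 1, and the log2 fold change was -0.19 (SE 0.113, interval from -26.6% to 5.37%). Of the 3 enzymes, 0 had an unadjusted p under 0.05 in edgeR, and the lowest adjusted p was 0.678, for Dct.

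Of the 8 melanosome structure and channel genes, 6 had a log2 fold change below 0 and 2 above, none of them separated the groups, and their median was -0.07. That median was -0.16 without Ctrl 1, -0.14 without DTR 2 and -0.03 without Ctrl 2, Ctrl 3 or DTR 1. Pmel, whose product forms the fibrils on which melanin settles (ENSMUSG00000025359, chr10:128704195-128720238), had 2993, 3733 and 3311 CPM in Ctrl and 2876, 3130 and 2763 in DTR. Only DTR 2 lay within the range of Ctrl, and the log2 fold change of Pmel was -0.19 (SE 0.113). Mlana, which binds PMEL in early melanosomes, had 478, 507 and 640 CPM in Ctrl and 541, 596 and 545 in DTR. All DTR values of Mlana lay inside the Ctrl range, and at 0.05 (SE 0.123) it had the highest log2 fold change of these 8. Gpnmb, a PMEL relative that macrophages also make, had 1872, 1777 and 2145 CPM in Ctrl and 2064, 2021 and 1836 in DTR, which is 0.03 on the log2 scale (SE 0.106). The summed level of 12 macrophage markers was 126 to 206 CPM, its highest in Ctrl 2, the library with the least Gpnmb, and the part of macrophages in the level of Gpnmb was not tested.

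Trpm1, a cation channel under MITF control, was counted at 737, 987 and 842 CPM in Ctrl and 704, 785 and 714 in DTR. Only DTR 2 passed the lowest Ctrl library, at a log2 fold change of -0.22 (SE 0.120, interval from -29.2% to 4.07%) that ran from -0.32 without Ctrl 1 to -0.11 without Ctrl 2. The transporters Slc45a2, Slc24a5 and Oca2, which set the ion content and pH of the melanosome, had log2 fold changes of -0.14, -0.03 and -0.11, and Gpr143, a receptor in the melanosome membrane, had -0.02. Gpr143 was the steadiest of these genes, from 30.9 to 35.5 CPM over all 6 libraries.

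Melanosome transport was the role with the lowest median, -0.21 over 6 genes, and held 3 genes whose libraries did not overlap, where 8.18% of all tested genes and 17.5% of those of at least 100 CPM lay wholly below Ctrl. Its median was -0.13 without Ctrl 2, -0.29 without DTR 2 and -0.33 when genomic span was offset. Mlph encodes melanophilin, which ties RAB27A on the melanosome to myosin Va (ENSMUSG00000026303, chr1:90915085-90951142). It had 484, 521 and 501 CPM in Ctrl and 394, 409 and 377 in DTR, so the distance between the groups was larger than the spread within either. The log2 fold change of Mlph was -0.35 (SE 0.0805), which is -21.6% with an interval from -31.1% to -10.8%. In edgeR its unadjusted p was 0.00245 and its adjusted p 0.602, and the adjusted p ran from 0.204 to 0.852 over the alternatives. Leaving out 1 library at a time kept it between -0.38 and -0.32.

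The partners of melanophilin are RAB27A and myosin Va. Rab27a, the small GTPase of the ripe melanosome (ENSMUSG00000032202, chr9:73044854-73097629), had 380, 470 and 425 CPM in Ctrl and 346, 376 and 327 in DTR. DTR 2 lay just under Ctrl 1, and the log2 fold change was -0.28 (SE 0.104, unadjusted edgeR p 0.0273, adjusted p 0.602). Myo5a, the myosin Va heavy chain, had 1642, 2223 and 1869 CPM in Ctrl and 1546, 1992 and 1667 in DTR. Its groups overlapped, at a log2 fold change of -0.14 (SE 0.144, interval from -27.9% to 14.3%) that ran from -0.25 without DTR 2 to -0.05 without DTR 1 and -0.02 without Ctrl 2. Mreg, which encodes melanoregulin, a protein that affects how melanosomes spread and are handed on, had 107, 120 and 109 CPM in Ctrl and 88.9, 105 and 83.7 in DTR. Mreg did not overlap, at -0.27 on the log2 scale (SE 0.106, unadjusted edgeR p 0.0323, adjusted p 0.604).

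RAB38 and RAB32 are the Rab GTPases that bring enzymes to the immature melanosome, and both overlapped between the groups. Rab38 had 287, 340 and 320 CPM in Ctrl and 285, 327 and 264 in DTR, which is -0.11 on the log2 scale (SE 0.109). Rab32 had 39.0, 41.0 and 49.3 CPM in Ctrl and 45.5, 54.9 and 59.6 in DTR, with Ctrl 3 above DTR 1. The log2 fold change of Rab32 was 0.31 (SE 0.139, interval from -0.944% to 54.4%), and its unadjusted edgeR p was 0.0583.

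The 12 biogenesis genes tested had a median of -0.08, 10 of them below 0, and their summed level was 1066, 1106 and 1055 CPM in Ctrl and 973, 1032 and 961 in DTR. Every DTR sum was below every Ctrl sum (log2 difference -0.12, two-sided exact permutation test over libraries, p = 0.1, the smallest that 3 against 3 allow). The median was -0.11 without Ctrl 1, -0.03 without DTR 1 and -0.02 without Ctrl 3. With library size alone in place of TMM the sums overlapped, at 1040 CPM in Ctrl 1 and 1042 in DTR 2. Ap3d1, the delta subunit of the AP-3 adaptor, which sorts tyrosinase towards the melanosome and is made in all cells (ENSMUSG00000020198, chr10:80706956-80742264), contributed most to this sum. It had 323, 316 and 309 CPM in Ctrl and 273, 256 and 257 in DTR. The groups of Ap3d1 were far apart for their spread, at a log2 fold change of -0.27 (SE 0.0763, interval from -26.7% to -6.38%), an unadjusted edgeR p of 0.00756 and an adjusted p of 0.602.

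Other AP-3 subunits had log2 fold changes near or above 0, and no test compared the subunits with each other. Ap3b1 had 137, 126 and 128 CPM in Ctrl and 132, 147 and 129 in DTR, which is 0.06 on the log2 scale (SE 0.0871). Of the AP-3 genes outside the group, Ap3m1 had 29.8, 30.8 and 31.0 CPM in Ctrl and 39.2, 37.0 and 32.5 in DTR, and Ap3s1 had 15.8, 15.3 and 14.7 in Ctrl and 20.7, 18.3 and 18.7 in DTR. Both lay wholly above Ctrl, at log2 fold changes of 0.25 and 0.33 and unadjusted edgeR p of 0.0480 and 0.0257, while Ap3m2 and Ap3s2 overlapped at -0.0032 and -0.02.

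Lyst, the lysosomal trafficking regulator, had 264, 293 and 262 CPM in Ctrl and 239, 263 and 219 in DTR, which is -0.19 on the log2 scale (SE 0.0973). Dtnbp1, the BLOC-1 subunit dysbindin, had 104, 109 and 108 CPM in Ctrl and 109, 120 and 111 in DTR, and at 0.08 (SE 0.0798) it had the highest log2 fold change of the biogenesis genes. Bloc1s1 had 52, 70 and 55 reads in Ctrl and 62, 47 and 37 in DTR. In CPM its DTR libraries lay wholly below Ctrl (2.12, 2.93 and 1.93 against 1.80, 1.51 and 1.63), at a log2 fold change of -0.49 with a SE of 0.339, an unadjusted edgeR p of 0.183 and an interval from -58.8% to 22.2%. Since 55.9% of the exon bases of Bloc1s1 are shared with Rdh5, its counts are uncertain. The remaining BLOC and HPS genes, Hps1, Hps3, Hps4, Hps5, Bloc1s3, Bloc1s5 and Bloc1s6, ran from -0.13 to -0.02, all with overlapping groups.

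To see how large the pigment-cell signal was in each library, 5 genes made by pigment cells and by few other cells (Dct, Tyrp1, Tyr, Pmel and Mlana) were summed as a pigment core. The sum was 14320, 16510 and 15950 CPM in Ctrl and 13890, 15880 and 13220 in DTR, or between 1.34% and 1.65% of all counts in a library. The groups overlapped, at a log2 difference of -0.12 (two-sided exact permutation test, p = 0.2). Over the same libraries the sum of 12 fibroblast markers was 14760, 5715 and 5578 CPM in Ctrl and 11720, 6174 and 15370 in DTR, so the pigment core varied 1.25-fold where the fibroblast sum varied 2.76-fold. Ctrl 1, DTR 1 and DTR 3, which held the most fibroblast signal, were also the 3 libraries with the smallest core. Ctrl 2 was the highest library for 18 of the 35 genes and DTR 3 the lowest for 14.

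**Figure D3:**
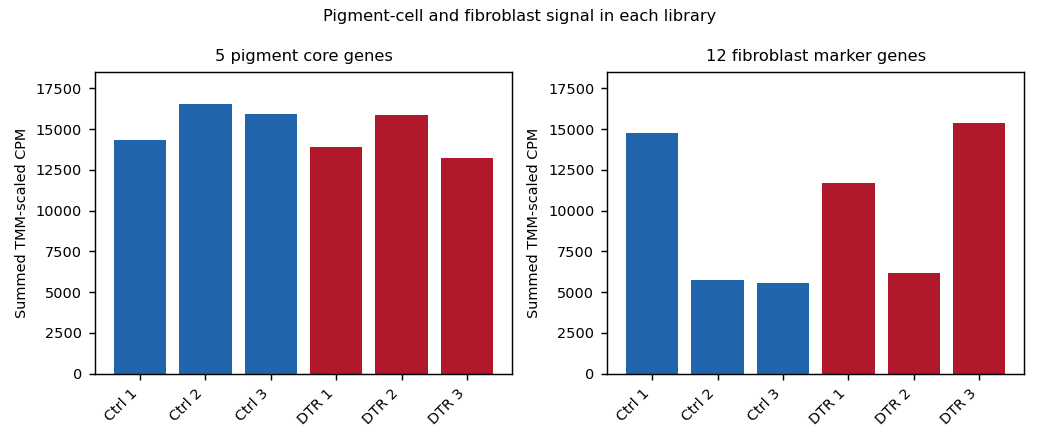
Summed TMM-scaled CPM of the 5 pigment core genes (left) and of 12 fibroblast markers (right) in each library, with Ctrl in blue and DTR in red and both axes from 0. The core is lowest in Ctrl 1, DTR 1 and DTR 3, where the fibroblast sum is at least 11720 CPM, and that sum is at most 6174 CPM in the other 3 libraries.

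Dividing each gene by the core of its own library, a measure added after the values were seen, does not depend on the scaling factor. The ratio is a level per unit of pigment-cell signal only for genes that pigment cells alone make. The part of fibroblasts in these ratios was not tested. Of the 30 genes outside the core, 4 lay wholly below Ctrl in this ratio, against 1.93% of 14881 genes with counts in every library, and 3 lay wholly above, against 12.3%. The 14881 genes include those of every cell type in the sort, so these shares are not a like background for pigment genes. The 4 below were Sox10, Rab27a, Mlph and Mreg, which also lay wholly below Ctrl in CPM. Their mean log2 differences were -0.16, -0.15, -0.23 and -0.16. Pax3, Rab32 and Dtnbp1 were the 3 above, with 0.14, 0.43 and 0.20. Each had a two-sided exact permutation p of 0.1, the smallest possible. Tfap2a, Ap3d1 and Bloc1s1, which did not overlap in CPM, overlapped in this ratio, and Mitf did so as well, with 0.10.

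The mix within the core also differed between libraries. Dct made up 46.2%, 45.9% and 45.4% of the core in Ctrl and 44.5%, 43.5% and 43.5% in DTR. Tyrp1 made up 22.1%, 20.6% and 22.3% in Ctrl and 23.5%, 24.4% and 23.5% in DTR. Neither share overlapped between the groups, while those of Tyr (7.51% to 7.87% in Ctrl, 7.33% to 8.59% in DTR), Pmel and Mlana did. The ratio to the core lay wholly lower in DTR for 1.93% of the same 14881 genes and wholly higher for 12.3%, which is again not a like background. Shares of one core are tied, since a lower share of Dct leaves more to the other genes, so these are not separate observations. The ratio of Tyrp1 to Dct was 0.477, 0.448 and 0.492 in Ctrl and 0.528, 0.561 and 0.540 in DTR. That of Mitf to Sox10 was 2.44, 2.67 and 2.71 in Ctrl and 3.36, 2.79 and 3.19 in DTR. Both ratios were chosen after their values were seen and carry no test.

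**Figure D4:**
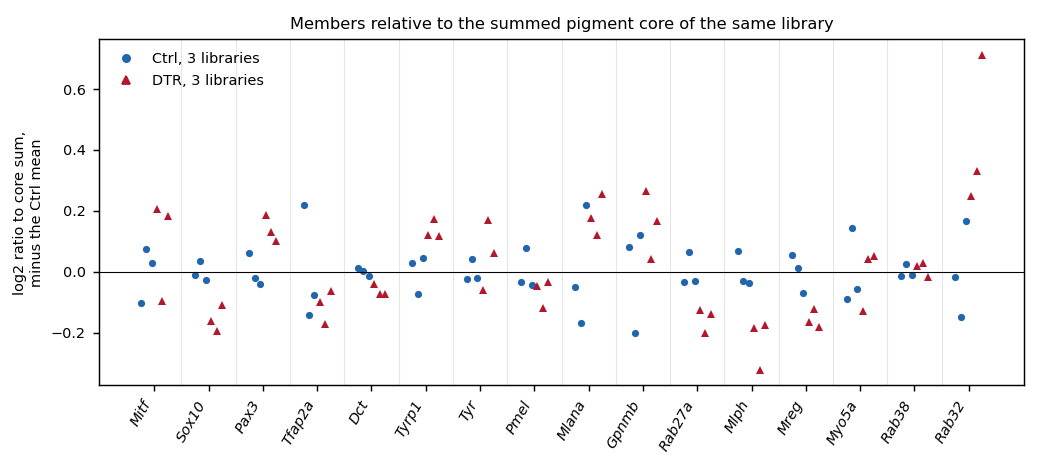
Log2 ratio of each gene to the summed pigment core of the same library, minus the mean of the Ctrl libraries, for 16 genes, with circles for Ctrl and triangles for DTR. DTR points lie wholly below the Ctrl points for Sox10, Dct, Rab27a, Mlph and Mreg and wholly above them for Pax3, Tyrp1 and Rab32, and the other genes overlap.

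The wider pathway was described with 4 further lists. Of 20 other biogenesis subunits, 19 were tested, with 13 log2 fold changes below 0 and a median of -0.06. In edgeR 3 of them were lower at an unadjusted p under 0.05 and 2 were higher, where 4.11% and 3.81% of all genes were, and 0 had an adjusted p under 0.05, while DESeq2 gave 2 at an unadjusted p under 0.05 and 0 after adjustment. The 3 were the HOPS tethering subunits Vps18 (-0.36), Vps39 (-0.25) and Vps16 (-0.27), and the 2 were Ap3s1 and Ap3m1. The other HOPS subunits of the list overlapped, at -0.22 for Vps33a, -0.05 for Vps11 and 0.09 for Vps41. Vps18, the lowest of the list, had 33.6, 33.96 and 28.6 CPM in Ctrl and 26.3, 24.3 and 24.1 in DTR. Without overlap were also Bloc1s4 and Ap1b1, both lower in DTR (-0.28 and -0.14), and Ap1g1 and Rab9, both higher (0.16 and 0.31). In all, 5 of the 19 lay wholly below Ctrl and 4 wholly above, as 8.18% and 6.32% of all tested genes did.

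Of 17 other melanosome and transport genes, 17 were tested, their median was -0.01, and 0 separated the groups. They ran from -0.22 for Rab17, a small GTPase, to 0.41 for Slc24a4, an ion exchanger. Among 20 regulators, partners and targets of MITF, 18 were tested, with a median of 0.01. Their lowest value was -0.39 for Mcam, a melanoma adhesion molecule, and their highest 1.62 for Tfec, a MITF relative with at most 1.11 CPM. Tfeb, another MITF relative, and Cdk2, a cell-cycle kinase, lay wholly below Ctrl in DTR, at -0.17 and -0.19, and these 2 of 18 compare with 8.18% of all tested genes. Met, the receptor of hepatocyte growth factor, had 1223 to 1480 CPM in Ctrl and 1302 to 1584 in DTR. For both lists edgeR gave 0 genes with an adjusted p under 0.05, and 1 gene, Atp6ap2 (0.28), with an unadjusted p under 0.05 against 7.92% of all tested genes, where DESeq2 gave 1 and 2 genes in the respective lists and 0 after adjustment.

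Of 12 genes listed for ligands of pigment-cell receptors, with relatives of WNT inhibitors among them, 7 could be tested, and the list summed to 151 to 224 CPM. Of that sum Dkk3, a secreted relative of WNT inhibitors picked out here after its values were seen, made up 116 to 168 CPM. Edn2 was listed at 0, Edn3, Dkk1 and Bmp4 had too few counts to be tested, and Asip, matched to no name, was not analysed here. Kitl, the gene of stem cell factor, which binds KIT, had 8.05, 4.10 and 7.66 CPM in Ctrl and 10.9, 10.4 and 23.2 in DTR. It lay wholly above Ctrl, as did 6.32% of all tested genes, at a log2 fold change of 1.16 with an unadjusted edgeR p of 0.0157, and its highest library was DTR 3, where the fibroblast sum was also highest. Fgf2 had the highest value of the list, 1.91, with 49.5 CPM in DTR 3 and 4.10 to 14.3 in the other libraries, which overlapped. Wnt5a had the lowest, -0.48. Adjusted p-values under 0.05 numbered 0 in edgeR, where 2 of the 7 had an unadjusted p under 0.05 against 7.92% of all tested genes, and DESeq2 gave the same counts of 0 and 2.

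Several cell types besides melanoma cells express some of these genes. The sort selected PDGFRα+ PDPN+ cells, and how transcripts of other cell types came to be in it was not tested. The summed level of 10 Schwann cell markers was 385, 469 and 417 CPM in Ctrl and 361, 485 and 418 in DTR, carried by S100b and Cdh19, which pigment cells also express. Mast cell markers, relevant to Kit and Mitf, summed to 7.01 to 18.2 CPM, and keratinocyte markers, relevant to Tfap2a, to 3.06 to 6.74 CPM. Both lists overlapped between the groups, and so did the endothelial list, at 27.0 to 34.5 CPM in Ctrl and 33.2 to 100.3 in DTR, and the macrophage list.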

How the data were processed

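The 37 genes and all lists were chosen with earlier results of these data known. The authors made stranded libraries from total RNA, trimmed reads with cutadapt 3.4, aligned them to GRCm38 with STAR 2.7.3a and counted them per gene and strand with featureCounts 2.0.1, and deposited raw counts, which are the only values used here. Another 6 columns of counts scaled by the authors, and their own fold changes and p-values, were not used. Counts were filtered with filterByExpr (minimum 10, total 15), which left 15133 genes, scaled with TMM and compared by edgeR's quasi-likelihood test (edgeR 4.0.16, R 4.3.3, two-sided, Benjamini-Hochberg adjustment over all genes, threshold 0.05). Each standard error is a log2 fold change divided by the root of its F. Single values were compared with exact permutation tests. CPM are counts per 1e+06 TMM-scaled counts of tested genes, exon lengths and overlaps come from GENCODE M21, and promoters from RefSeq. Values per library were given for the enzymes, for the 3 most abundant and the extreme genes of each role and for those without overlap. Alternatives were DESeq2 1.42.0, other scalings, filters and adjusted deviances, an offset for genomic span, a replicate block and each library left out. The steps were tested on simulated data.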

Additional observations from a re-analysis of the deposited data

How the results depend on the processing

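The count of genes called among the 35 was 0 in every alternative run. Over all genes it was 31 with DESeq2's Wald test and between 0 and 2 with 1 library left out, where the 2 came without Ctrl replicate 1. Replicate numbers did not pair the libraries (correlations of deviations 0.114, 0.132 and -0.0420 for numbers 1, 2 and 3), and with the replicate number as a block 0 genes were called, with 1271 at an unadjusted p under 0.05 in place of 1199. The log2 difference of the pigment core was -0.09 with library size alone and ran from -0.20 to -0.07 with 1 library left out. Genes below 0 numbered 27 of 35, 24 with library size alone, 32 with the offset for genomic span, which moved the median of all tested genes from -0.0029 to -0.07 and that of the 35 from -0.11 to -0.20, and 22 to 29 with 1 library left out. Genes without overlap numbered 5 with library size alone, all lower, where 6.35% of all tested genes were, and 7 to 15 with 1 library left out (15 without DTR replicate 2, all lower, where 12.7% of all tested genes were lower and 11.4% higher), over settings in which 23.1% to 28.9% of all tested genes did not overlap in either direction. Among single log2 fold changes, 8 of 279 values changed sign in the alternatives other than leave-one-out. With the offset these were Pax3 (-0.10), Tyrp1 (-0.0207), Gpnmb (-0.0341), Ap3b1 (-0.13) and Dtnbp1 (-0.0304), and with library size alone Gpr143 (0.0077), Slc24a5 (0.0007) and Hps3 (0.0109). With 1 library left out, 26 of 210 changed sign, over 14 genes. The ranges were -0.14 to 0.0448 for Mitf, -0.0565 to 0.0904 for Pax3, -1.23 to 0.0501 for Ednrb, -0.20 to 0.0309 for Tyr, -0.0826 to 0.0833 for Tyrp1 and -0.0331 to 0.19 for Mlana. They were -0.0627 to 0.0303 for Gpr143, -0.11 to 0.0473 for Slc24a5, -0.24 to 0.009 for Oca2, -0.026 to 0.12 for Gpnmb, -0.0925 to 0.074 for Hps3, -0.10 to 0.0288 for Hps4, -0.53 to 0.0407 for Bloc1s3 and -0.17 to 0.0782 for Bloc1s6. The cause was not tested. The groups of 3 libraries and the few reads of Kit, Ednrb, Bloc1s1 and Bloc1s3 limit what could be seen.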
